A study of Talpa occidentalis and Mus musculus with 35 samples.

Results

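The annotation of the Iberian mole genome, assembly talOcc3, held 433 gene lines named after a protein gene of the mitochondrial genome, of 23336 gene lines in all. A line was taken when its name, without a copy number or low-confidence suffix, was ND1, ND2, ND3, ND4, ND4L, ND5, ND6, COX1, COX2, COX3, CYTB, ATP6 or ATP8. Each such line is called a locus below. The choice used the name alone, and no position, length or score entered it. The annotation accompanied 35 polyadenylated RNA libraries in 16 groups, 19 from moles (Talpa occidentalis) and 16 from mice, collected to compare gonads in which female moles form an ovotestis. The mole groups, all wild type, were 2 libraries each of ovotestis and of testis at embryonic day 15, with ovarian part, testicular part and testis represented by 3 libraries each at postnatal day 7 and by 2 each in adults. The mouse groups were Fgf9 mutant ovary and B6 wild-type ovary at embryonic day 13.5, and wild-type CD1 ovary and testis at embryonic day 13.5, postnatal day 7 and 10 weeks (2 each). The annotation carried no value per library, so levels of mitochondrial transcripts in these groups were not analysed here and library depth is unknown. An annotation has no replicates, so the values below are descriptions of gene models, with no test.

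Mitochondria carry a small circular genome of their own, and in mammals its 13 protein genes encode core subunits of the respiratory chain. The ND genes encode subunits of complex I, which takes electrons from NADH, CYTB encodes cytochrome b of complex III, the COX genes encode the catalytic core of complex IV, cytochrome c oxidase, and the ATP genes encode membrane subunits of complex V, the ATP synthase. The genes lie close together with no introns, all but ND6 are read from the same strand, and TGA encodes tryptophan instead of a stop. Copies of mitochondrial DNA are also known to be inserted in the nuclear chromosomes of many mammals. The mole sequence of assembly talOcc3 was not used here, so a locus of the mitochondrial genome and a nuclear copy of it cannot be told apart by sequence.

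Mouse mitochondrial sequences show how tightly these genes sit, which the spacing of the mole loci is set against below. They were read from GENCODE M21 transcripts (GRCm38, chrM, plus strand), with start and stop codons in capitals. ATP6 and COX3 share a base, at position 8607, where the last A of the ATP6 stop codon is the first base of the COX3 start codon. ND4L is shown whole because it was the gene most often modelled over its full length in the mole.
ATP6, end, chrM:8578-8607: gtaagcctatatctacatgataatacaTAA
COX3, start, chrM:8607-8636: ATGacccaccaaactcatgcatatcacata
ND4L, whole, chrM:9877-10173: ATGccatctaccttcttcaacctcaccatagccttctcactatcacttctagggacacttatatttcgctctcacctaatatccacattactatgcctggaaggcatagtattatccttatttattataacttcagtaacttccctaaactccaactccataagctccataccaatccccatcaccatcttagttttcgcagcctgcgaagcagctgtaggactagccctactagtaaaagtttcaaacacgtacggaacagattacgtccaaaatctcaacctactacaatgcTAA

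The loci covered 9 of the 13 gene names and were uneven among them. Complex I had 176 loci from 4 of its 7 genes, complex IV had 152 from all 3 genes, complex III had 71 from its 1 gene, and complex V had 34 from 1 of 2. COX1, the subunit that binds the heme and copper centres where oxygen is reduced, had 80 loci, ND1 had 74 and CYTB had 71. Of all symbols in the file, only LOC107986724, with 95, had more loci than these 3. ND6 had 46 loci, COX2, which receives electrons from cytochrome c, had 40, and ATP6, part of the proton channel, had 34. COX3 had 32 loci, ND2 had 30 and ND4L had 26. No locus was named ND3, ND4, ND5 or ATP8. In the mouse these 4 genes have lengths of 348, 1378, 1824 and 204 bases, so both the longest and the shortest mitochondrial protein genes were among those without a named locus. All 433 loci lay on the plus strand of their scaffold, as did 48.9% of all other gene lines. A single exon made up 431 loci (99.5%), against 23.3% of all other gene lines, and all 433 were models labelled exonerate, a program that aligns a protein to a genome. None carried the low-confidence mark that 12 gene lines of the file had.

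**Figure D1:**
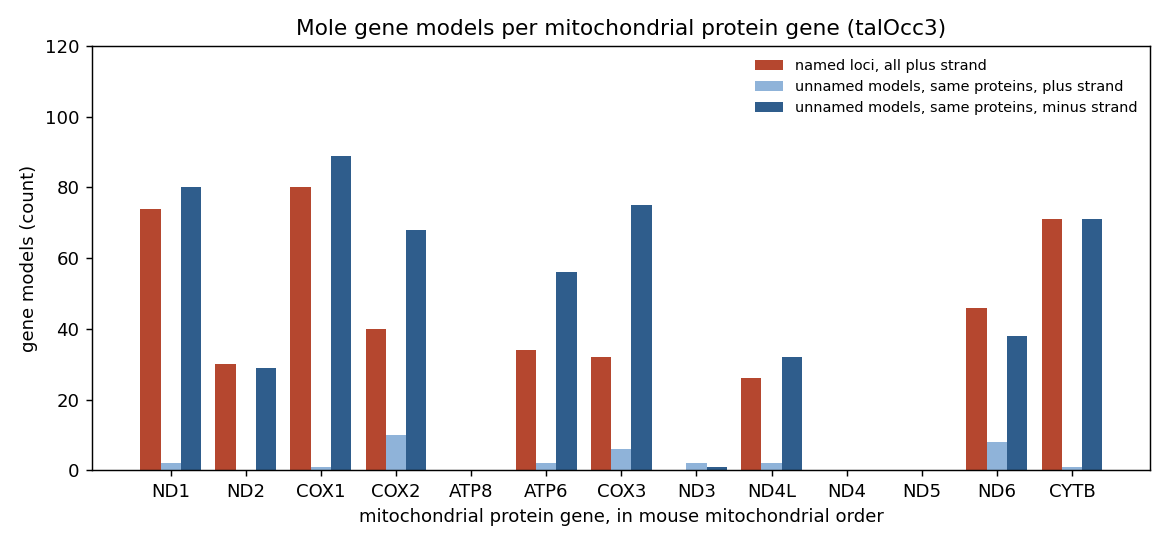
Gene models per mitochondrial protein gene in the mole annotation, with genes in mouse mitochondrial order on the horizontal axis and the count of models on the vertical axis. Red bars are named loci, all on the plus strand, and light and dark blue bars are unnamed models aligned to the same proteins on the plus and the minus strand. COX1 has 80 named loci and 89 unnamed minus-strand models. ND4, ND5 and ATP8 have no named locus and no unnamed model on the mouse protein, the only one searched for them and for ND3.

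Models without a symbol filled in the other strand. Each named locus was aligned to 1 of 42 proteins of other mammals: 115 loci to hedgehog, 97 to proteins whose identifiers start with HG, 90 to elephant, 85 to human and 46 to mouse proteins. No locus under another symbol was aligned to these 42 proteins. A further 573 models without a symbol or score were aligned to the same proteins or to a mouse mitochondrial protein, on 477 scaffolds. Of these, 539 (94.1%) lay on the minus strand and 34 on the plus strand. The named and the unnamed models were thus split almost entirely by strand. Among exonerate models named after other genes 54.6% lay on the plus strand and 1757 on the minus strand. Named models of other genes were thus not confined to the plus strand. Of the 1863 gene lines without a symbol in the file, 1210 were exonerate models on the minus strand. The strand of unnamed models on other proteins was not set apart, so whether they show such a split was not tested. Which way a scaffold is written is arbitrary, and no source used here says how symbols were assigned. Per gene, the unnamed models numbered 90 for COX1, 82 for ND1, 81 for COX3, 78 for COX2, 72 for CYTB, 58 for ATP6, 46 for ND6, 34 for ND4L and 29 for ND2. ND3, a small membrane subunit of complex I, had 3 unnamed models on the mouse protein and no named locus. For ND4, ND5 and ATP8, neither a named locus nor an unnamed model on the mouse protein was found. Genes without a named locus could be searched only through the mouse protein. Models of ND3, ND4, ND5 or ATP8 on proteins of other species were therefore not counted.

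The scaffolds that held the loci were of 2 kinds with none between. The annotation gives no scaffold lengths, so the last annotated base of a scaffold, a lower bound of its length, was used, and scaffolds annotated to 1000000 or beyond are called large. On large scaffolds lay 6 loci, on 4 of the 57 such scaffolds, and on short scaffolds lay 427 loci, on 388 scaffolds. The 4 large scaffolds were annotated to between 33956546 and 74892672. The short ones were annotated to between 194 and 2291, with a median of 998. Between 2291 and 33956546 lay the last annotated bases of 725 other scaffolds, and none of them held a locus named after a mitochondrial gene. No short scaffold with such a locus held a named gene of any other kind, and 89 of the 388 also held an unnamed model. Of the 1412 scaffolds annotated to under 3000 bases, 388 held a named mitochondrial locus, another 414 held an unnamed model of the same proteins, and 610 held neither. The first 2 sets together made up 56.8% of them. A scaffold whose only model was on an ND3, ND4, ND5 or ATP8 protein of a species other than the mouse would count among the 610. In all, 351 scaffolds held 1 named locus and 41 held 2.

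The 6 loci on large scaffolds came from 5 genes. ND2, COX2, ND4L and ND6 had no locus there. The pair on scaffold 5 was the longest stretch. ND1_copy23 ran from 10799336 to 10800956 in 2 coding parts of 597 and 325 bases with 699 bases between them. COX1_copy2 ran from 10805110 to 10808406 in 3 coding parts of 542, 760 and 236 bases, with 1022 and 737 bases between them. These were the only 2 named loci with more than a single coding part. COX1_copy2 was also the locus of longest coding length of all, with 1538 bases. Its alignment ran from reference position 1 to 511, the highest reached by any COX1 locus. Between ND1_copy23 and COX1_copy2 lay 4153 bases, against 1620 bases between ND1 and COX1 in the mouse mitochondrial genome, where ND2 lies in between. ND1_copy23 was aligned only to position 294 of its reference, and whether ND1 sequence lies in this space was not tested. The nearest other named genes were KARS_copy2, a single-exon model 3.92 kb to the left of ND1_copy23, and PLA2G4A, which encodes a cytosolic phospholipase, 62.7 kb to the right of COX1_copy2.

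On scaffold 18, ATP6_copy26 ran from 31035055 to 31035731 and COX3_copy29 from 31035734 to 31036024, with 2 bases between them. Both had a single exon, of 677 and 291 coding bases. They lay among olfactory receptor genes, with OR10A6 0.897 kb to the right of COX3_copy29 and OR5E1P 41.5 kb to the left of ATP6_copy26. CYTB_copy62, on scaffold 20 from 44945297 to 44945769, was the last annotated feature of that scaffold, and the nearest named gene, C6orf10, lay 64.0 kb to its left. CYTB_copy71, on scaffold 24 from 620110 to 620678, had GSPT2 229 kb to the left and CXorf67 21.3 kb to the right. None of the 6 overlapped another locus. Of the 6, only COX3_copy29 had a coding length that was a multiple of 3, which 279 of the 427 loci on short scaffolds (65.3%) had. With 6 loci on 4 scaffolds, this difference is a count and was not tested.

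Scores on large scaffolds were lower than the highest of the gene in every case, as they were for most loci. Over all 433 loci, 67 were at the highest score of their gene. The score is the authors' own value for a model; no source used here says what it counts. COX1_copy2 had a score of 576, which was 95.8% of the highest COX1 score, and ND1_copy23 had 259 (72.3%). ATP6_copy26 had 163 (67.1%) and COX3_copy29 had 115 (32.2%). CYTB_copy62 had 124 (24.1%) and CYTB_copy71 had 103 (20.04%). Since longer alignments score higher, the score was also divided by the number of aligned reference positions. ND1_copy23 then had 0.963 per position, above 9 of 73 ND1 loci on short scaffolds, whose median was 1.13. COX1_copy2 had 1.13, above 12 of 79, whose median was 1.48. COX3_copy29 had 1.19, above 4 of 31 loci with a median of 1.54, and CYTB_copy71 had 0.920, above 4 of 69 with a median of 1.39. CYTB_copy62 had 1.27, above 17 of the same 69. ATP6_copy26, with 1.19, went the other way and lay above 24 of 33 ATP6 loci, whose median was 1.08. Loci of a gene differ in which stretch of the protein they cover, and the part this plays in these ranks was not tested.

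**Figure D2:**
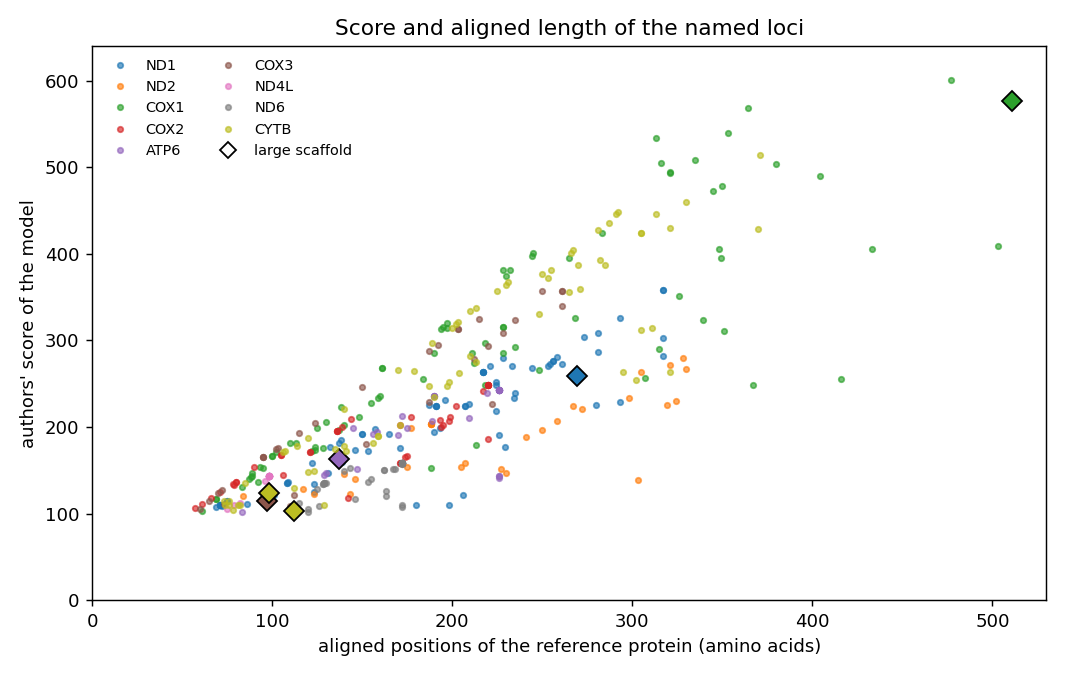
The authors' score of each named locus against the number of aligned positions of the reference protein, with 1 point per locus coloured by gene and diamonds for the 6 loci on large scaffolds. COX1_copy2 is the diamond at 511 positions and a score of 576, and CYTB_copy71 is the lowest diamond, at 103.

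Unnamed models on large scaffolds formed longer runs than the named ones. There were 13 of them, on 4 scaffolds. Scaffold 13 held 5 models from 51580 to 62361, a span of 10.8 kb, in the order COX3, COX2, COX1, ND1 and CYTB, all on the minus strand. Scaffold 29 held 5 models from 23631003 to 23641623, a span of 10.6 kb, in the order COX3, ATP6, COX1 and ND1 on the minus strand and ND6 on the plus strand. Read in reverse, both runs place ND1 before COX1 and COX1 before COX3, as the mouse mitochondrial genome does. In both runs the gene next to ND1, CYTB on scaffold 13 and ND6 on scaffold 29, is one of those that stand last when the mouse circle is opened before ND1. Scaffold 24, which also held CYTB_copy71, had 2 COX1 models from 3168633 to 3171027, and scaffold 3 had 1 COX1 model. The COX1 model of scaffold 13 had 1547 coding bases, and the mouse gene has 1545.

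**Figure D3:**
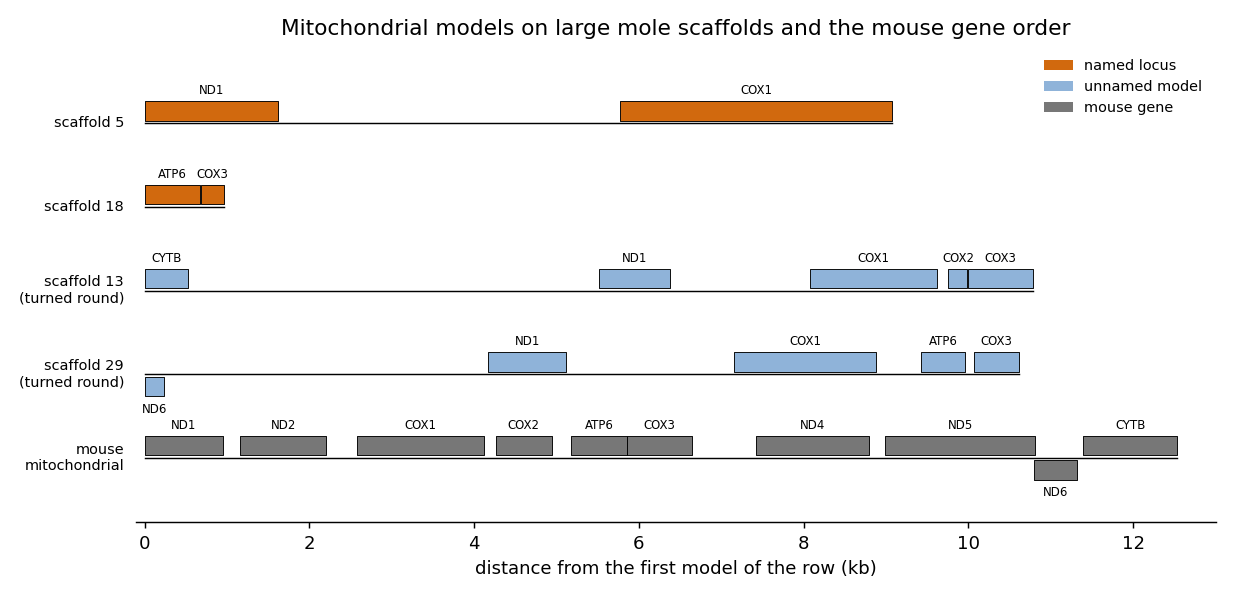
Runs of mitochondrial models on large mole scaffolds, with the mouse mitochondrial genes in the lowest row, drawn to scale in kb from the first model of each row. Orange boxes are named loci and blue boxes unnamed models, boxes under a line are on the other strand, scaffolds 13 and 29 are turned round, and the mouse genes ATP8, ND3 and ND4L are left out. The ND1 and COX1 models are 4153 bases apart on scaffold 5, and the mouse genes are 1620 bases apart.

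Neighbouring named loci kept the mouse order in every pair. On 41 scaffolds 2 named loci lay within 20 kb of each other, on 39 short and 2 large scaffolds, and all 41 pairs had the order and strand of the mouse mitochondrial genome. The shared strand follows from all named loci being on the plus strand. ATP6 and COX3 formed 11 pairs on short scaffolds, each with exactly 2 bases between the models, as on scaffold 18. In 10 of the 11 the alignment of ATP6 ran to the last coding base of the model and to reference position 226, the last reached by any ATP6 locus. If the stop codon of 3 bases follows there, which was not read in the mole, it would reach 1 base into COX3, the overlap that the mouse sequences above show. In ATP6_copy22, on scaffold 11223, the alignment stopped at position 181, before the end of the model. COX1 and COX2 formed 9 pairs, 149 to 153 bases apart and 149 apart in 7 of them, against 140 in the mouse. COX3 and ND4L formed 8 pairs, 483 to 503 bases apart and 484 apart in 4, against 486 in the mouse, where ND3 lies in between. In 7 of those 8 an unnamed plus-strand model lay between the loci. ND1 and ND2 formed 7 pairs, 214 or 215 bases apart, against 206 in the mouse. COX2 and ATP6 formed 3 pairs, all 239 bases apart, against 230 in the mouse, where ATP8 starts in that space. A single ND2 and COX1 pair was 394 bases apart, against 376 in the mouse. Within each of these gene pairs the mole spacing varied by no more than 4 bases, except for COX3 and ND4L. Mouse gene ends include the stop codon where it is complete. A mole model that ends before its stop codon would add those 3 bases to the spacing after it. Whether the mole models include it was not read, so a spacing wider than in the mouse, here and below, may come in part from this. The spacing of ND6 and CYTB below lies between the starts of both genes, so no stop codon enters it.

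ND6 and CYTB were never paired with both under their names. ND6 is on the other strand from CYTB, and all named loci were on the plus strand, so no scaffold could hold both under their names in the mouse arrangement. When unnamed models of the same proteins were allowed as neighbours, 59 pairs of a named and an unnamed model were found on short scaffolds, and all 59 had the mouse order and strand, 45 in the mouse direction and 14 turned round. ND6 and CYTB made up 39 of them, 73 to 87 bases apart and exactly 73 apart in 35, against 74 in the mouse. In 25 of the 39 the CYTB model carried the name, and in 14 the ND6 model did. COX1 and COX2 gave another 10 pairs, 149 to 151 bases apart, ATP6 and COX3 another 8, all 2 bases apart, and ND3 and ND4L gave 2, both 69 bases apart, against 70 in the mouse. Pairs of 2 unnamed models numbered 87 on short scaffolds, and all 87 had the mouse order turned round. ATP6 and COX3 were 2 bases apart in all 33 such pairs, COX1 and COX2 were 149 apart in 19 of 23, and ND1 and ND2 were 214 apart in 11 of 12. COX3 and ND4L were 484 apart in 5 of 7, and COX2 and ATP6 were 239 apart in 4 of 6. For these 5 gene pairs the commonest spacing equalled that of the named pairs. ND6 and CYTB were 73 apart in all 4 pairs of unnamed models, the commonest spacing of their pairs with a single name. A single ND2 and COX1 pair was 389 bases apart.

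On the large scaffolds, 6 of the 9 pairs of unnamed models had the mouse order and strand, turned round. Order was compared with the mouse genome opened before ND1. The other 3 included the 2 COX1 models on scaffold 24, 26 bases apart. They also included ND1 and CYTB on scaffold 13, 4989 apart, and ND1 and ND6 on scaffold 29, 3931 apart. These last 2 pairs span that opening, and on the closed circle, turned round, they too have the mouse order and strand. The spacing of ATP6 and COX3 differed between the runs. It was 2 bases in the named pair of scaffold 18, as on the short scaffolds, and 115 bases in the unnamed pair of scaffold 29. That unnamed pair had 525 coding bases of ATP6 and 552 of COX3, against 681 and 784 in the mouse. Gene sequence outside a model would count as spacing here, and its part in these distances was not tested. The ND1 and COX1 models were 4153 bases apart on scaffold 5, 2041 on scaffold 29 and 1691 on scaffold 13, against 1620 between the mouse genes. Coding lengths of ND1 on these scaffolds were 922, 948 and 868 bases, against 957 in the mouse. Those of COX1 were 1538, 970 and 1547, against 1545. COX1 and COX2 were 139 bases apart on scaffold 13, against 140 in the mouse and mostly 149 on the short mole scaffolds. COX2 and COX3 on scaffold 13 were 11 bases apart, with no ATP6 model between them. The COX2 model there had 231 coding bases, against 684 in the mouse.

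**Figure D4:**
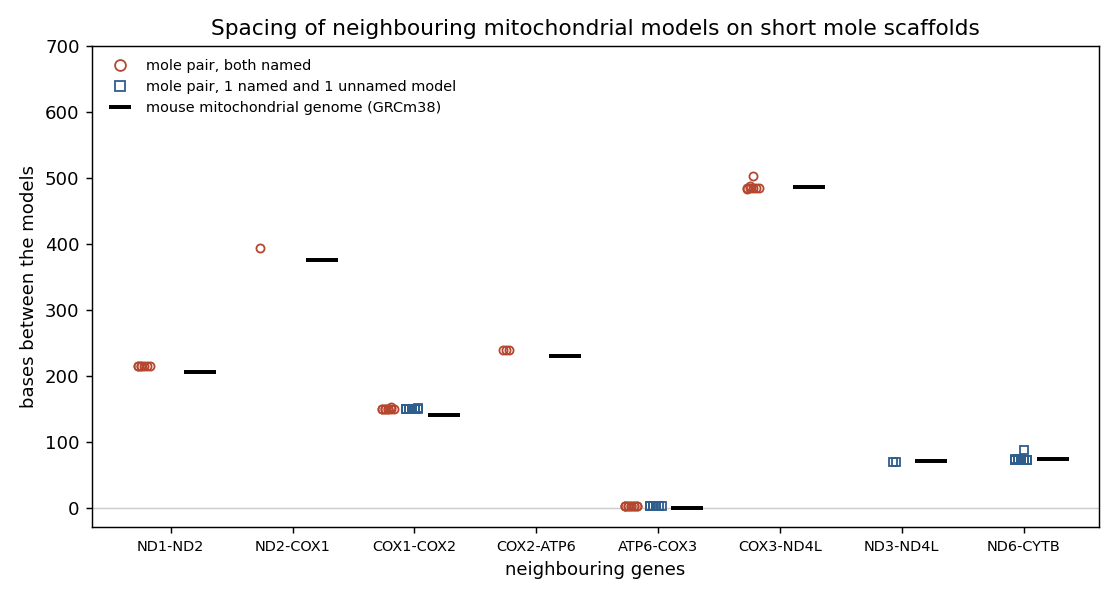
Bases between neighbouring mitochondrial models on short mole scaffolds, by gene pair. Red circles are pairs of named loci, blue squares pairs of a named and an unnamed model, and black bars the mouse mitochondrial genome (GRCm38), which lies to the right of the mole pairs. The 11 ATP6 and COX3 circles all lie at 2 bases, and 35 of 39 ND6 and CYTB squares lie at 73. Complete stop codons are part of the mouse genes, and mole models may leave them out.

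Coding length was at most close to that of the mouse gene for each name, and for most loci well below it. Over all 433 loci the median was 591 bases, against 1029 for all other gene lines. ND4L had a median of 294 bases, which was also its maximum, against 297 in the mouse with its stop codon. ATP6 had a median of 678 and a maximum of 679, against 681 in the mouse. ND6 had a median of 525 and a maximum of 528, against 519. These 3 names are among the shorter genes, and their typical locus was nearly the whole gene. COX2 had a median of 541.5 bases and a maximum of 683, against 684 in the mouse, and COX3 a median of 505 and a maximum of 786, against 784. ND1 had a median of 673.5 and a maximum of 955, against 957, and ND2 a median of 837.5 and a maximum of 1041, against 1038. COX1 and CYTB, the longest genes with loci, fell furthest short. Their medians were 682.5 and 639 bases, and the maximum was 1538 for COX1, against 1545 in the mouse, and 1113 for CYTB, against 1144. The shortest locus of all was COX3_copy32, with 180 bases from 1 to 180 of scaffold 17935.

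The stretch of protein that each locus covered ran in a similar order of genes. The authors gave each model an interval on 1 reference per gene, and each reference position corresponded to 3 aligned bases in all 433 loci (within 0.1). Coverage below is the share of positions up to the highest position reached by any locus of the gene, which was 98 for ND4L, 174 for ND6 and 511 for COX1. The median coverage over all loci was 67.5%. It was 100% for ND4L (lowest 76.5%), 97.7% for ND6 (lowest 63.8%) and 88.3% for ATP6 (lowest 36.7%). It was 71.6% for COX2, 64.6% for ND2, 61.9% for ND1, 57.9% for COX3, 53.7% for CYTB and 41.6% for COX1. At least 95% was covered by 88 loci (20.3%), of which 25 were ND6, 23 ND4L, 16 ATP6 and 8 COX2. ND1, ND2 and COX3 had 4 each, and COX1 and CYTB had 2 each. Less than 50% was covered by 144 loci (33.3%), of which 53 were COX1, 29 CYTB and 27 ND1 and none was ND4L or ND6. No ND6 locus began before position 3 of its reference, while all 26 ND4L loci began at position 1.

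Partial loci tiled the proteins from both ends. Among COX1 loci, 39 began at position 1 and 28 reached position 511, the highest reached. Every position up to it was covered by 27 to 46 loci, with a median of 34. Among CYTB loci, 30 began at position 1 and 29 reached position 378, the highest reached. Every position up to it had 29 to 47 loci, with a median of 39. ND1 had 40 loci from position 1, while 30 ended at position 317 and 1 at position 318, the highest reached, with a median of 46 loci per position. ND6 had a median of 43 and ND2 of 17. COX2 and ATP6 both had a median of 29, ND4L of 26 and COX3 of 19. Among the 9 genes with loci, the median number of loci over a position thus spanned a narrower range than gene length did. At single positions the number fell to 1 in ND1 and ND2 and to 0 in ND6. Some loci were alike, unevenly among genes: the 433 loci had 361 distinct combinations of gene, interval, score and coding length. The 26 ND4L loci had 5, the 46 ND6 loci 25 and the 34 ATP6 loci 22. The 80 COX1 loci had 78, the 74 ND1 loci 70 and the 71 CYTB loci 70. The 40 COX2 loci had 34, the 32 COX3 loci 28 and the 30 ND2 loci 29. Models that share a gene are not independent, since how far their scaffolds overlap in sequence is unknown here.

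**Figure D5:**
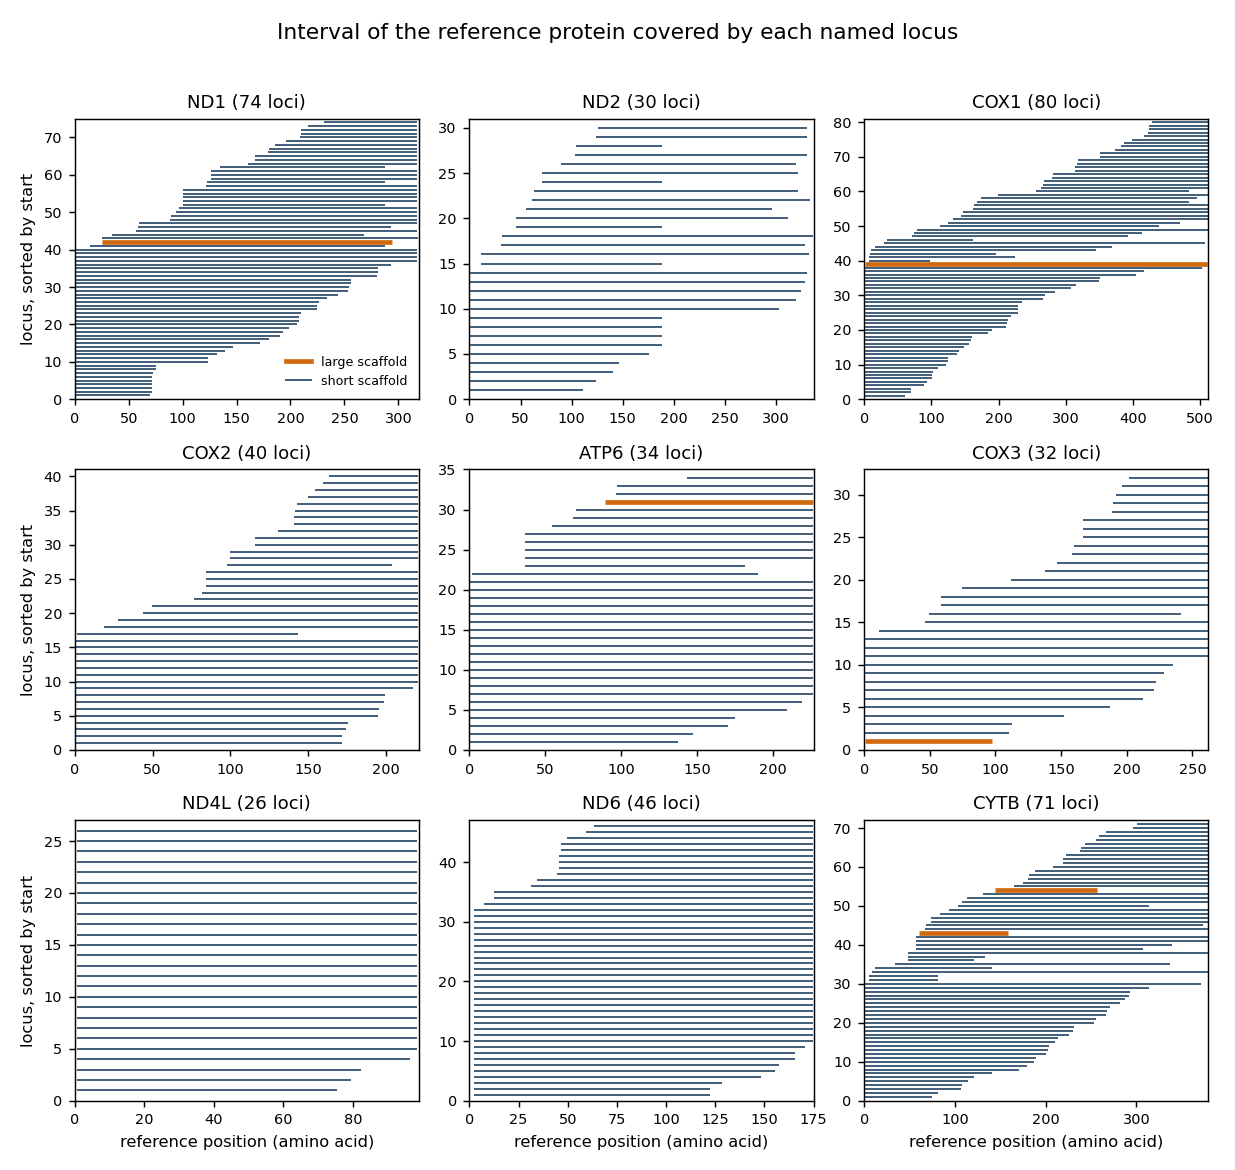
Interval of the reference protein covered by each named locus, with 1 panel per gene, reference position in amino acids on the horizontal axis and loci sorted by start on the vertical axis. Thin lines are loci on short scaffolds and thick orange lines the 6 loci on large scaffolds. Nearly all ND4L lines run over all 98 positions, while the 80 COX1 lines cover a median of 41.6% of 511 positions.

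Loci at the start of a short scaffold seldom began at the first position of the protein. Of the 427 loci on short scaffolds, 164 (38.4%) started within the first 3 bases of the scaffold, against 12.2% of other gene lines on short scaffolds. Those other lines include the unnamed models on the same proteins, of which 215 of 573 (37.5%) on all scaffolds started there, a share close to that of the named loci. Among single-exon exonerate models of other names on short scaffolds it was 7.43%. Of those 164, 163 began after reference position 1 and 1 at it. A plus-strand model cannot extend before the first base of its scaffold, so this is largely so by construction. Of the 263 loci that started further in, 196 began at position 1 and 67 after it. At the other end, 365 of 427 (85.5%) closed at the last annotated base of their scaffold, which is so by construction where the locus is the last model there. The true end of a scaffold is not given in the annotation.

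Coding length was used as a measure of frame, and no sequence was read for it. Of the 433 loci, 280 (64.7%) had a coding length divisible by 3, against 88.2% of all other gene lines. The share was 70.5% among other exonerate models with a name and a single exon, and 69.9% among those of them on short scaffolds, so models of the same kind under other names were also below the whole file. ND4L, with 24 of 26 loci in frame (92.3%), and ND6, with 41 of 46 (89.1%), were near the share of the file. COX2 had 29 of 40 (72.5%), ATP6 had 24 of 34 (70.6%) and COX3 had 21 of 32 (65.6%). CYTB had 44 of 71 (62.0%), ND1 had 44 of 74 (59.5%), COX1 had 41 of 80 and ND2 had 12 of 30 (40%). In the mouse, 3 of the 13 genes, COX3, ND4 and CYTB, have lengths that are no multiple of 3 because their stop codon is completed after transcription. In-frame TGA codons occur in 12 of the 13 mouse genes. Among the genes with loci, COX1 has 17, COX3 12, CYTB 11, and ND1 and ND2 8 each. COX2 has 5, ATP6 and ND6 have 3 each, and ND4L has none. Whether these codons bear on the frame of the mole loci was not tested.

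In 183 loci the aligned stretch accounted for the whole coding length, which makes that length close to a multiple of 3 by construction, since each position takes 3 bases. In the other 250 loci some coding bases were not aligned, with a median of 51 such bases, and 114 of these loci were in frame. The share also differed with the place on the scaffold. On short scaffolds it was 62.7% for the 365 loci that ended at the last annotated base and 80.6% for the 62 that ended before it. It was 74.4% for the 164 loci that started within the first 3 bases and 59.7% for the 263 that started later. Whether a model was closed inside a codon at a scaffold edge was not tested. By coverage of the reference, 28 of 39 loci under 25% were in frame (71.8%), 65 of 105 from 25 to 50% (61.9%), 71 of 121 from 50 to 75% (58.7%), 38 of 80 from 75 to 95% (47.5%) and 78 of 88 from 95% on (88.6%). The share fell over the first 4 classes and was highest in the last, which holds mostly ND6, ND4L and ATP6. The parts that gene and coverage play in this were not tested separately.

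The locus of highest score of each gene lay on a short scaffold. The highest of all was a COX1 model on scaffold 11418, from 197 to 1715, with 1519 coding bases, reference positions 30 to 506 and a score of 601. The CYTB model of highest score, 514, lay on scaffold 12636 from 394 to 1506 and covered positions 1 to 371. For ND1 it lay on scaffold 20224, from 94 to 1044, with a score of 358, and for ND2 on scaffold 18951, from 74 to 1060, with 280. ATP6_copy11 and COX3_copy2 had the highest scores of their genes, 243 and 357. They were neighbours on scaffold 11451, from 5 to 682 and from 685 to 1467. Both alignments ran from position 1 to the highest position that any locus of the gene reached. COX2_copy5 on scaffold 12598, from 535 to 1215, had 248, ND6_copy13 on scaffold 12079, from 410 to 934, had 158, and ND4L_copy21 on scaffold 10360, from 771 to 1064, had 143. The highest score of a gene was shared by 22 ND4L, 19 ND6, 12 ATP6, 6 COX2, 3 COX3 and 2 ND1 loci, while ND2, COX1 and CYTB had 1 locus each at it. Median scores were 279.5 for COX1, 266 for CYTB, 224.5 for ATP6, 221.5 for ND1, 216 for COX3, 197.5 for ND2, 190.5 for COX2, 151.5 for ND6 and 143 for ND4L. The lowest score of any locus was 102, and no scored model in the file had less than 100.

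The nuclear genes of the same complexes looked different in the file. Most respiratory chain subunits are encoded in the nucleus, and 77 symbols taken by name for complexes I to V were found, with 136 loci. The 9 mitochondrial names had 26 to 80 loci each, against a median of 1 and a maximum of 8, at ATP5L, for the nuclear symbols. A single locus was annotated for 49 nuclear symbols and several for 28. On large scaffolds lay 6 of the 433 mitochondrial loci (1.39%), against 95.6% of the nuclear subunit loci. A single exon made up 99.5% of the mitochondrial loci, against 38.2% of the nuclear ones. The plus strand held 100% of the mitochondrial loci, against 50.7% of the nuclear ones, and 64.7% of the mitochondrial loci were in frame, against 84.6%. No test was run on these shares, since loci of a gene are not replicates.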

How the data were processed

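Polyadenylated RNA of mole and mouse gonads was sequenced, and STAR 2.6.1d and mouse build mm9 appear, without a stated role, in the submitters' processing notes. The data analysed here are the deposited annotation of the mole assembly talOcc3, whose start and end columns are 1-based positions. Transcript models carry a score and an interval of a reference, both deposited by the authors. What that score counts, and how the models were built and named, was not given in the sources used here. There were 0 unused columns of per-sample values.

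Python 3.11.15 was used to join gene lines with their transcript and coding parts, with numpy 2.4.6 for medians and matplotlib 3.10.9 for figures. Coding length is the sum of coding parts, in frame when a multiple of 3. Coverage is the aligned share of positions up to the highest that the loci of a gene reach. Large scaffolds are annotated to 1000000 or beyond, and neighbours are at most 20 kb apart. Unnamed models took their gene from the aligned protein, each of which gave 1 gene name. Mouse genes came from GENCODE M21 (GRCm38), and no coordinate was converted between builds. Nuclear subunits were NDUFAB1, SDHA to SDHD, CYC1 and symbols starting UQCR, COX4 to COX8 or ATP5. Symbols of NDUFA, NDUFB, NDUFC, NDUFS or NDUFV followed by a number were also taken. The choice was by name alone, and whether each symbol, such as ATP5SL or COX7A2L, encodes a subunit was not checked.

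The reading of names, frame, exon numbers and coding length was tested on simulated data: 200 of 200 planted loci were read back and 0 of 200 decoys were taken. Pair order and spacing, coverage, scaffold class and the genes of unnamed models were not part of that test. The members, lists and thresholds were chosen with earlier results of these data known. Named loci were those of highest score or longest coding length of a gene, those at the ends of a range, those in pairs and those on large scaffolds.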

Additional observations from a re-analysis of the deposited data

How the results depend on the processing

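No paired analysis was possible because the annotation holds no values of single libraries. Of 30 alternatives, 18 were planned and 12 were added after seeing the data. Of the 18 planned, 15 gave the identical value, some because nothing met their condition, since 0 loci had the low-confidence mark and 0 had under 150 coding bases. Over all 30, 7 moved beyond the limit set for them. The other 23 stayed within it, which for a count was 1.5 times, so the locus count of 305 at 50% of the top score or more is among them. With names as written, where each copy counts as a separate name, 9 loci were left. Adding the unnamed models of the 9 names with loci, without the 3 of ND3, gave 1003 loci, and asking for coverage of at least 95% left 88. The share in frame was 58.7% without loci that start in the first 3 bases of a scaffold and 88.6% at coverage of at least 95%. Keeping loci that reached 50% of the highest score or more, the median coverage was 77.7% and 15 ordered pairs were left. Each of these alternatives counts fewer or more loci by construction. The 6 loci on large scaffolds stayed 6 with large scaffolds taken from 10000, 100000 or 10000000, and became 7 from 2000. Library depth is unknown, scaffold lengths are lower bounds, and no mole sequence was read.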
